A study of Mus musculus with 27 samples.

Results

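A set of 8 genes of the alveolar macrophage lipid program was followed: Pparg, which encodes the nuclear receptor PPARγ, and Fabp1, Fabp4, Fabp5, Cidec, Plin2, Lpl and Cd36. They were chosen by symbol, matched to mouse Ensembl identifiers, and make up 8 of the 38124 genes of the count table. All 8 passed the filter on low counts that left 13599 genes for testing.

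PPARγ is a ligand-activated transcription factor that binds DNA as a heterodimer with the retinoid X receptor. In the lung it is needed for fetal monocytes to become alveolar macrophages, is induced there by granulocyte-macrophage colony-stimulating factor, and supports the clearance of surfactant lipid. Cd36 encodes a scavenger receptor that takes up fatty acids and oxidised lipoproteins, and Lpl encodes lipoprotein lipase, which releases fatty acids from triglyceride-rich particles. Fabp1, Fabp4 and Fabp5 encode the liver, adipocyte and epidermal fatty acid binding proteins, which carry fatty acids inside the cell. Plin2 encodes perilipin 2, which coats lipid droplets, and Cidec encodes a droplet protein that lets small droplets fuse into larger ones.

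The study followed macrophages of the airspaces through lung inflammation in C57B/6 mice of 8 to 14 weeks. Lipopolysaccharide (LPS, bacterial endotoxin) was given into the trachea at 20 ng in 50 µL of PBS, and cells were washed from the lungs 3, 6, 9 or 12 days later. Resident macrophages were sorted as CD11c+CD11b- cells and recruited macrophages as CD11c-CD11b+ cells, and resident cells of untreated mice were the day 0 group. With resident cells at 5 times (days 0, 3, 6, 9 and 12) and recruited cells at 4 (days 3, 6, 9 and 12), the design had 9 groups of 3 polyA-selected libraries. The labels do not say that libraries of a group came from separate animals, so the p-values measure only the spread between these samples, which may be technical. The labels name no genotype beyond the strain, and every group was sorted by the same 2 surface proteins.

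The 27 libraries held 11093216 to 18299674 counts (median 14859352) and detected 16152 to 17621 genes. Reads outside annotated genes made up 6.77% to 26.5% of reads (median 9.70%), against 9.16% to 11.2% in untreated cells, and 9 libraries lay above that range. The column names of the table of unassigned reads carry a number for each library, in 4 runs: 2 to 9, 12 to 18, 19 to 28 and 34 to 53. What the numbers stand for was not given in the sources used here. The 4 libraries numbered 12 to 18 were day 9 replicate 2 and day 12 replicate 1 of both populations. They stood apart for Pparg, Fabp1, Cidec and Fabp5. In 4 of 4 of these libraries Pparg, Fabp1 and Cidec lay below their group's mean (log2 deviations of Fabp1 from -2.67 to -1.24). Fabp5 lay above it in 4 of 4 (0.40 to 1.01). For Fabp4 and Cd36, 2 of the libraries lay below and 2 above, and for Plin2 and Lpl, 1 below and 3 above. Results whose call changes without these 4 libraries are given both ways. Summed markers followed the sort, in CPM (read counts scaled to 1e+06 per library after TMM normalization). The 12 resident alveolar macrophage genes summed to 19039 to 37870 CPM in resident and 3131 to 12502 CPM in recruited libraries. The 10 monocyte and recruited macrophage genes summed to 425 to 1555 and 7228 to 28616 CPM. The resident list includes Itgax (CD11c), used in the sort. Chil3 alone averaged 23616 CPM in resident cells of day 6, where the resident sums were 34771 to 36369 CPM. The sums therefore do not show that each marker followed the sort.

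In the mouse genome build GRCm38 (GENCODE annotation), Pparg (ENSMUSG00000000440) lies at chr6:115360951-115490399 on the plus strand. On the same chromosome are Fabp1 (ENSMUSG00000054422, chr6:71199827-71205023, plus strand) and Cidec (ENSMUSG00000030278, chr6:113424634-113435760, minus strand). Fabp5 (ENSMUSG00000027533, chr3:10012548-10016607, plus strand) and Fabp4 (ENSMUSG00000062515, chr3:10204088-10208576, minus strand) are neighbours on chromosome 3. Plin2 (ENSMUSG00000028494) lies at chr4:86648386-86670060 on the minus strand, Cd36 (ENSMUSG00000002944) at chr5:17781690-17888801 on the minus strand and Lpl (ENSMUSG00000015568) at chr8:68880491-68907448 on the plus strand. Fabp5 has near-identical processed copies in the genome, and how the counting treated reads that fit several places was not given in the sources used here, so its level is uncertain.

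PPARγ with the retinoid X receptor binds a direct repeat of AGGTCA spaced by a single base (DR1). RefSeq promoter windows (GRCm38.p6) matched 5 of the 8 genes by symbol, Pparg, Fabp1, Cidec, Plin2 and Cd36. The bases before a RefSeq start of the 4 genes other than Pparg are shown. Textbook PPARγ targets are among these genes, and their windows hold DR1 matches of differing quality. Each is written 5′ to 3′ on the gene's strand, and capitals mark the best match to AGGTCANAGGTCA on either strand, with 12 letters compared. Plin2 is read from chr4:86670061-86670309 and Cd36 from chr5:17835897-17836146, both on the minus strand. The Cd36 window lies inside the span given above for the gene. It precedes an internal RefSeq start and is not the sequence before the gene's outermost start. Cidec is read from chr6:113435761-113436010 on the minus strand and Fabp1 from chr6:71199629-71199826 on the plus strand, without 52 bases that GENCODE places in an exon.
Fabp1: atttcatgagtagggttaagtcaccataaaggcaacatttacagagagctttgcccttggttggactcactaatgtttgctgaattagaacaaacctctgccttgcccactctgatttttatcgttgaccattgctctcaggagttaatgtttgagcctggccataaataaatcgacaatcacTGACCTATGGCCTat
Cd36: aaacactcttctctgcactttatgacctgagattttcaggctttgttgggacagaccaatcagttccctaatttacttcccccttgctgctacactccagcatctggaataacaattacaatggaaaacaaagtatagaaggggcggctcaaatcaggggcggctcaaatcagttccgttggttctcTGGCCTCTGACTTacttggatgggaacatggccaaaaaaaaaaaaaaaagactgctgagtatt
Plin2: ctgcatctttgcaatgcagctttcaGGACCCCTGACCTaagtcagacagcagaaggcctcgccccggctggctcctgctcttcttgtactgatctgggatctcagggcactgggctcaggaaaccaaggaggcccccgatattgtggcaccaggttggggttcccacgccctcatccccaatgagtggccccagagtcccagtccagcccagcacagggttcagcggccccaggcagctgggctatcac
Cidec: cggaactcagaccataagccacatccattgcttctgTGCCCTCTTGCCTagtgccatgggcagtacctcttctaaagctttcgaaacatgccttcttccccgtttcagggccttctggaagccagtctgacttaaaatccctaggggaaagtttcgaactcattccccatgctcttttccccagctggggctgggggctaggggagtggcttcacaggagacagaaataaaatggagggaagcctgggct
The Fabp1 match differs from the repeat at 1 letter and begins 67 bases before the RefSeq start. Up to 1 mismatch was found in 0.484% of 32851 promoter windows of 250 bases. The Cd36 match (63 bases before the internal start) and the Plin2 match (225 bases before its start) differ at 2 letters each. Up to 2 mismatches were found in 3.24% of windows. The Cidec match (214 bases) differs at 3 letters, and 21.3% of windows hold as good a match. In the other Cidec window, not shown, and in the 3 windows of Pparg the best match had 4 mismatches, which 74.5% of windows reach. An exact repeat was in 0.0335% of windows and in none of the 8 windows of these genes (3 of Pparg, 2 of Cidec). The half-site AGGTCA, which can lie inside a DR1 match, was in 14% of all windows and in 5 of the 8. TTGCNNAA, a C/EBP site, was in 9.56% and in 3 of the 8, TATAAA in 12.4% and in 2, and GAGGAAGT, a PU.1 site, in 2.44% and in none. These matches describe letters in the windows and say nothing of binding in these cells.

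Averaged over days 3 to 12, recruited cells had less of 6 of the 8 transcripts than resident cells and more of 1. Fabp1, Fabp4, Cidec, Lpl, Pparg and Cd36 were lower, Fabp5 was higher, and Plin2 did not pass the test. In edgeR's quasi-likelihood F test (p adjusted by Benjamini-Hochberg over all tested genes, threshold 0.05), 60.3% of all tested genes passed in this comparison (30.3% higher, 30% lower). The members' median log2 difference was -2.18, against 0.02 over all tested genes. The differences were -4.68 ± 0.41 for Cidec, -4.48 ± 0.53 for Fabp1, -2.63 ± 0.30 for Fabp4, -2.56 ± 0.21 for Lpl, -1.80 ± 0.16 for Pparg and -1.12 ± 0.26 for Cd36 (log2 ± SE, adjusted p from 9.57e-10 to 0.00086). Plin2 differed by 0.09 ± 0.05 (adjusted p = 0.131) and passed in DESeq2 (adjusted p = 0.0218). For Pparg, Fabp1, Fabp4, Cidec and Lpl, recruited libraries lay below resident ones on each of the 4 days without overlap, as for 10.7% of all tested genes. For these 5 genes all 12 recruited libraries also lay below all 15 resident ones. The share of all tested genes with that stricter separation, given again for single genes below, was not computed. In bulk samples, fewer cells of a type and less RNA per cell cannot be told apart. Over the 12 pairs of a day and replicate number, the recruited library was lower in 12 for those 5 genes. It was lower in 10 for Cd36, in 4 for Plin2 and in 2 for Fabp5. Shares of all tested genes with such pair counts were not computed either. Within the number runs 2 to 9, 19 to 28, 34 to 53 and 12 to 18, the mean paired log2 difference of Pparg was -2.14, -1.56, -2.04 and -1.75. That of Fabp4 was -3.63, -3.13, -3.02 and -0.76, that of Lpl -3.42, -2.81, -2.64 and -1.37, and that of Cd36 -2.02, -1.74, -1.49 and 0.81. These run means mix days, and the run 12 to 18 holds only a day 9 and a day 12 pair. Among pairs of those days alone, the run 12 to 18 gave -0.82 and -0.71 for Fabp4, -1.40 and -1.34 for Lpl and 1.07 and 0.56 for Cd36. The other 4 pairs of those days ranged from -4.05 to -1.95, from -3.70 to -1.91 and from -1.80 to -0.43.

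**Figure D1:**
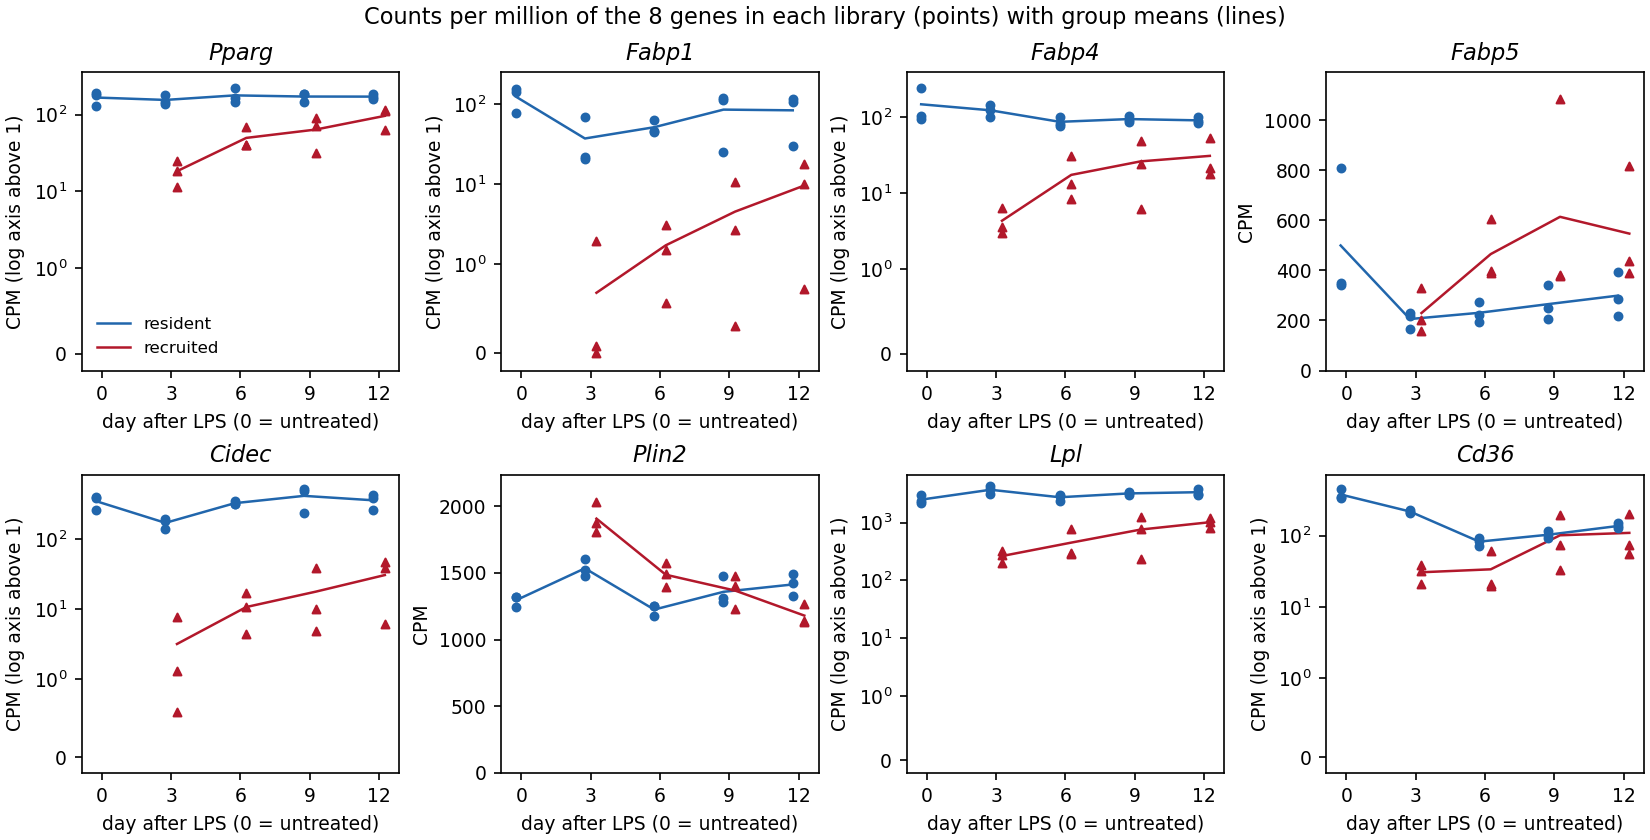
CPM of each of the 8 genes (y axis; linear from 0 for Fabp5 and Plin2, logarithmic above 1 CPM for the other 6) against the day after LPS (x axis; day 0 is untreated), with circles for the resident libraries, triangles for the recruited libraries and lines through the group means. Recruited Pparg rises from a mean of 18.4 CPM on day 3 to 96.6 CPM on day 12 and stays under every resident library, while Plin2 is high in both populations.

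Pparg itself, the receptor of the program, did not pass the test against untreated cells on any day in resident cells. Its level was 129, 179 and 194 CPM in the 3 untreated libraries, and 148, 183 and 137 CPM on day 3. On day 6 resident cells had 167, 223 and 145 CPM, on day 9 184, 146 and 188 CPM, and on day 12 158.5, 172 and 186 CPM. The resident groups overlapped throughout, and the log2 differences from untreated cells lay between -0.10 and 0.09 with SEs of 0.31, none past the test. Recruited cells had 18.5, 25.1 and 11.5 CPM on day 3, 40.3, 68.8 and 40.6 CPM on day 6, 70.7, 31.9 and 89.5 CPM on day 9, and 64.2, 114 and 112 CPM on day 12. Each recruited library was below each resident library of its day. The difference from resident cells was -3.09 ± 0.35 on day 3 (log2 ± SE, adjusted p = 3.51e-07), -1.84 ± 0.33 on day 6 (adjusted p = 0.000139) and -1.43 ± 0.32 on day 9 (adjusted p = 0.00159). On day 12 it was -0.83 ± 0.32, which missed the threshold (adjusted p = 0.0570). It passed with a replicate block, which pairs the libraries of a day and replicate number (adjusted p = 0.00582), and with DESeq2 (adjusted p = 0.0334). It also passed with only the groups compared (adjusted p = 0.0326) and with the number run in the model (adjusted p = 0.00513). Recruited Pparg stood at 11.8%, 27.9%, 37.1% and 56.1% of the resident mean on days 3, 6, 9 and 12.

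Within recruited cells Pparg rose at every later day against day 3: by 1.44 ± 0.33 on day 6 (adjusted p = 0.00226), 1.80 ± 0.33 on day 9 (adjusted p = 0.000245) and 2.4 ± 0.34 on day 12 (adjusted p = 1.00e-05). The gap between the populations narrowed by 1.66 ± 0.46 from day 3 to day 9 (adjusted p = 0.0197) and by 2.25 ± 0.46 from day 3 to day 12 (adjusted p = 0.00243). The first of these calls was lost without recruited day 3 replicate 3 or recruited day 9 replicate 3 (1.34 to 1.41, adjusted p = 0.0577 to 0.0643) and with only the groups compared (1.69, adjusted p = 0.0645). From day 3 to day 6 the narrowing of 1.24 ± 0.46 missed the threshold (adjusted p = 0.0991) and passed with a replicate block (1.3, adjusted p = 0.0117), DESeq2 (adjusted p = 0.0434) or the number run (adjusted p = 0.0165). Without the 4 libraries numbered 12 to 18 the day 12 rise was 2.65 (adjusted p = 1.24e-06). The retinoid X receptor gene Rxra, the DNA-binding partner, is on the list of partners: its recruited mean was 119 CPM on day 3 and 384 CPM on day 12, a rise of 1.69 ± 0.16 (adjusted p = 2.42e-08), against resident means of 313 CPM on day 3 and 606 CPM on day 12.

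**Figure D2:**
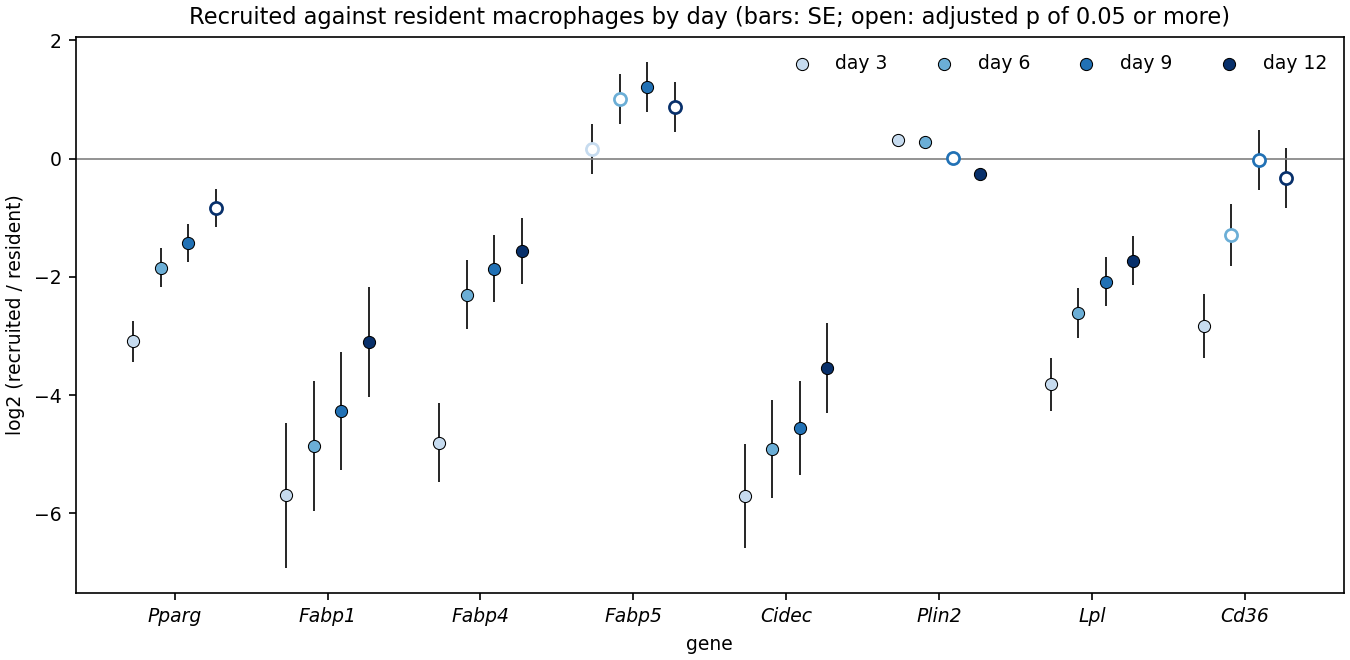
Log2 ratio of recruited to resident cells (y axis) for each gene (x axis) on days 3, 6, 9 and 12 (light to dark blue), with bars for the SE and open circles where the adjusted p is 0.05 or more. Fabp1 and Cidec lie lowest on every day, Pparg runs from -3.09 to -0.83, and Plin2 crosses from 0.31 to -0.26.

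Cd36, the gene of the fatty acid scavenger receptor, fell in resident cells by day 6 after LPS. Untreated libraries had 453, 336 and 349.6 CPM, day 3 libraries 210.2, 218 and 228 CPM, and day 6 libraries 70.6, 93.8 and 83.0 CPM. On day 9 resident cells had 115, 93.6 and 101 CPM and on day 12 135, 149 and 126 CPM, so all 12 later libraries lay below all 3 untreated ones. The change passed the test on day 6 (-2.20 ± 0.53, adjusted p = 0.0149), a call lost without untreated replicate 1 or resident day 6 replicate 1 or 3 (-2.23 to -2.05, adjusted p = 0.0576 to 0.0766). On days 3, 9 and 12 the differences of -0.79, -1.88 and -1.47 missed it (adjusted p = 0.272, 0.0509 and 0.204), with day 9 passing without the 4 libraries numbered 12 to 18 (-1.82, adjusted p = 0.0237), in DESeq2 (adjusted p = 0.0126), by library size (adjusted p = 0.0214) and with the number run (adjusted p = 0.0160). With only the groups compared all 3 passed (adjusted p = 0.00127, 0.00246 and 0.00167). Within the number runs the day 6 differences from the untreated library of the same run were -2.68, -1.84 and -2.07.

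Recruited cells held 39.3, 20.9 and 31.7 CPM of Cd36 on day 3 and 19.6, 21.2 and 60.3 CPM on day 6. On day 9 they held 32.8, 196 and 74.9 CPM and on day 12 199, 74.2 and 55.8 CPM. The high library on each of these days was the one numbered 12 to 18, and the recruited libraries overlapped the resident ones on days 9 and 12. The populations differed on day 3 (-2.84 ± 0.54, adjusted p = 0.000247) and did not differ by the test on days 9 and 12 (-0.03 ± 0.51, adjusted p = 0.973, and -0.32 ± 0.51, adjusted p = 0.694). On day 6 the difference of -1.29 missed the threshold (adjusted p = 0.0617) and passed without recruited day 6 replicate 3 (-2.02, adjusted p = 0.00981), by library size (adjusted p = 0.0438) and with the number run (adjusted p = 0.0397). Cd36 rose in recruited cells against day 3 by 1.72 ± 0.53 on day 9 (adjusted p = 0.0150) and 1.83 ± 0.53 on day 12 (adjusted p = 0.00913). Without recruited day 9 replicate 2 or day 3 replicate 2 the first was 0.83 to 1.51 (adjusted p = 0.0694 to 0.195), and without recruited day 12 replicate 1 the second was 1.11 (adjusted p = 0.0988). With only the groups compared both were lost (adjusted p = 0.106 and 0.0568), and with the number run the first (1.23, adjusted p = 0.0675). Without all 4 libraries numbered 12 to 18 they were 0.83 (adjusted p = 0.132) and 1.11 (adjusted p = 0.0457), and the day 9 and day 12 differences between the populations were -1.01 and -1.07 (adjusted p = 0.115 and 0.114).

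The gap between the populations in Cd36 narrowed by 2.80 ± 0.73 from day 3 to day 9 (adjusted p = 0.0153) and 2.51 ± 0.73 from day 3 to day 12 (adjusted p = 0.0276). With a replicate block both missed the threshold (adjusted p = 0.0665 and 0.0755). The first was lost without recruited day 9 replicate 2 (1.91, adjusted p = 0.0568) and the second without any of 7 of the 12 libraries (1.80 to 2.58, adjusted p = 0.0502 to 0.0888), namely recruited day 12 replicate 1, recruited day 3 replicates 2 and 3, resident day 3 replicate 3 and each resident day 12 library. The second was also lost without the 4 libraries numbered 12 to 18 (1.78, adjusted p = 0.0539) and with no filter (adjusted p = 0.0599).

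Lpl, the lipase gene, stood at 2973, 2165 and 2398 CPM in untreated libraries and 3107, 3787 and 4279 CPM on day 3 in resident cells. Later resident libraries ranged from 2357 CPM on day 6 to 3868 CPM on day 12, and no day differed from untreated cells by the test (log2 differences of 0.14 to 0.57, adjusted p = 0.325 to 0.911), though day 3 passed with only the groups compared (0.56, adjusted p = 0.0236). Recruited cells had 319, 204 and 271 CPM on day 3, 303, 283 and 771 CPM on day 6, 234, 1275 and 774 CPM on day 9, and 1215, 1029.5 and 817 CPM on day 12. Every recruited library lay under the lowest resident one. Their mean was 7.11%, 16.4%, 23.6% and 30.2% of the resident mean on days 3, 6, 9 and 12, with log2 differences of -3.81 ± 0.45 on day 3 (adjusted p = 5.74e-07) and -1.73 ± 0.41 on day 12 (adjusted p = 0.00324). Lpl rose in recruited cells by 1.95 ± 0.41 from day 3 to day 12 (adjusted p = 0.000774). The rise to day 9 was 1.52 ± 0.41 (adjusted p = 0.00603), and 0.95 (adjusted p = 0.0657) without recruited day 9 replicate 2 or without the 4 libraries numbered 12 to 18 (adjusted p = 0.0919), and it was also lost with only the groups compared (adjusted p = 0.0977). The gap narrowed by 2.09 ± 0.57 to day 12 (adjusted p = 0.0186), a call lost without recruited day 3 replicate 2 (1.93, adjusted p = 0.0551). To day 9 it narrowed by 1.73 ± 0.57 (adjusted p = 0.0483), a call lost with a replicate block (1.47, adjusted p = 0.121), without the 4 numbered libraries (1.19, adjusted p = 0.216), with no filter, only the groups compared or the number run (adjusted p = 0.106, 0.120 and 0.0657) and without any of 10 of the 12 libraries, all but replicate 1 of the recruited days 3 and 9 (1.16 to 1.85, adjusted p = 0.0593 to 0.162).

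**Figure D3:**
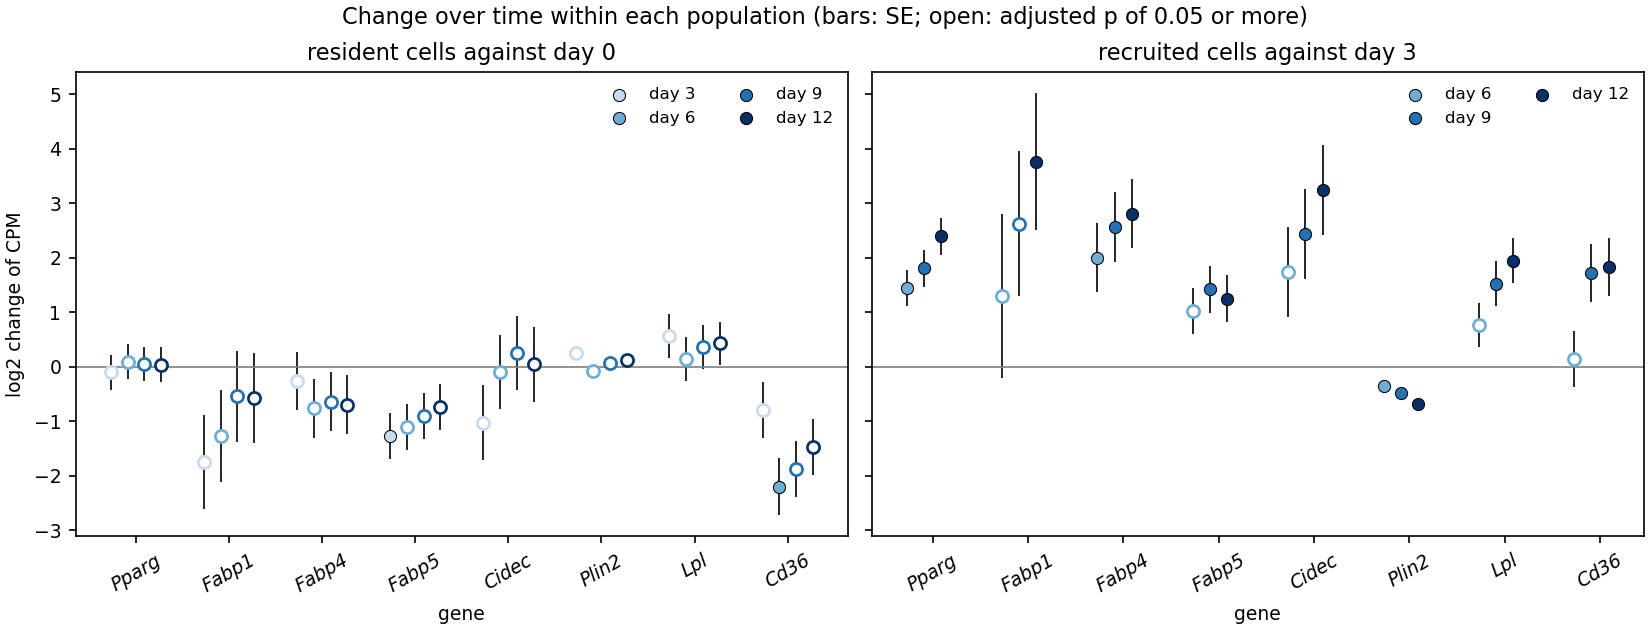
Log2 change of CPM (y axis) for each gene (x axis) in resident cells against untreated cells (left) and in recruited cells against their day 3 (right), by day from light to dark blue, with bars for the SE and open circles where the adjusted p is 0.05 or more. On the left the filled points are Fabp5 on day 3 (-1.28) and Cd36 on day 6 (-2.20), and on the right 7 genes lie above 0 and Plin2 below it on day 12.

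The 3 fatty acid binding protein genes differed in direction between the populations. Fabp1, the liver form, had 29, 0 and 1 reads in the recruited libraries of day 3, or 1.96, 0 and 0.0728 CPM (the 0 allows up to 0.235 CPM at 3 counts, counting error only). Recruited libraries had 3.08, 0.557 and 1.52 CPM on day 6, 2.69, 0.300 and 10.6 CPM on day 9, and 0.718, 18.1 and 10.1 CPM on day 12. Resident libraries had 77.6, 141 and 158 CPM untreated, 69.5, 20.8 and 21.9 CPM on day 3, 47.0, 63.7 and 44.5 CPM on day 6, 114, 25 and 119 CPM on day 9, and 30.4, 107 and 115 CPM on day 12. The low resident library of days 9 and 12 is in each case the one numbered 12 to 18, and all resident libraries lay above all recruited ones. The difference was -5.69 ± 1.22 on day 3 (adjusted p = 0.000737), -4.86 ± 1.1 on day 6 (adjusted p = 0.00163), -4.27 ± 1.00 on day 9 (adjusted p = 0.00239) and -3.1 ± 0.93 on day 12 (adjusted p = 0.0167). The last was lost without recruited day 12 replicate 1 or 3 or resident day 12 replicate 3 (-3.13 to -2.56, adjusted p = 0.0506 to 0.0603) and with only the groups compared (adjusted p = 0.0834). Fabp1 rose in recruited cells from day 3 to day 12 (3.76 ± 1.26, adjusted p = 0.0221), a call lost without recruited day 12 replicate 2 or day 3 replicate 2 or 3 (2.98 to 3.24, adjusted p = 0.0810 to 0.103) and with only the groups compared (adjusted p = 0.125). The difference of 2.62 ± 1.33 from day 3 to day 9 missed the threshold (adjusted p = 0.132) and passed without the 4 libraries numbered 12 to 18 (3.15, adjusted p = 0.0226) and with the number run (adjusted p = 0.0336). All 3 resident day 3 libraries were below all untreated ones for Fabp1, and the difference of -1.74 ± 0.86 missed the threshold (adjusted p = 0.150) and passed with the number run (-1.83, adjusted p = 0.0262).

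Fabp4, the adipocyte form, had 240.1, 93.8 and 104 CPM in untreated resident libraries and 99, 121 and 145 CPM on day 3. From day 6 on, resident libraries lay between 76.4 and 104 CPM, and no resident day differed from untreated cells by the test (-0.77 to -0.26, adjusted p = 0.494 to 0.768). Recruited cells had 6.41, 3.53 and 2.98 CPM on day 3, 13, 8.26 and 30.4 CPM on day 6, 6.12, 48 and 23.7 CPM on day 9, and 53.1, 20.9 and 17.9 CPM on day 12. All recruited libraries were below all resident ones, and the high libraries of days 9 and 12 were those numbered 12 to 18. Recruited cells had 3.55% of the resident mean on day 3 and 34.2% on day 12, differences of -4.81 ± 0.67 (adjusted p = 6.84e-06) and -1.56 ± 0.56 (adjusted p = 0.0445). The day 12 call was lost with a replicate block (-1.69, adjusted p = 0.0738), with DESeq2's size factors, no filter or only the groups compared (adjusted p = 0.0512, 0.0889 and 0.0520) and without any of 5 of the 6 libraries, all but recruited replicate 1 (-1.61 to -1.28, adjusted p = 0.0762 to 0.159). Without the 4 libraries numbered 12 to 18 it was -2.21 (adjusted p = 0.0167). Fabp4 rose in recruited cells by 2.81 ± 0.64 from day 3 to day 12 (adjusted p = 0.00157). The gap narrowed by 3.25 ± 0.83 over the same time (adjusted p = 0.0138), which missed the threshold with a replicate block (3.14, adjusted p = 0.0531).

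Fabp5, the epidermal form, was the only gene of the 3 that was higher in recruited cells, averaged over days 3 to 12 (0.81 ± 0.21, adjusted p = 0.00225). Recruited libraries had 328, 159 and 203 CPM on day 3, 392, 398 and 605 CPM on day 6, 382, 1083 and 377 CPM on day 9, and 817, 436 and 388 CPM on day 12. Resident libraries had 808, 341 and 350.5 CPM untreated, 219, 167 and 231 CPM on day 3, 275, 195 and 223 CPM on day 6, 249, 342 and 205 CPM on day 9, and 395, 286 and 216 CPM on day 12. Recruited libraries lay above all resident ones on days 6 and 9, and overlapped them on days 3 and 12. The difference passed on day 9 (1.21 ± 0.42, adjusted p = 0.0333) but not without recruited day 9 replicate 2 or resident day 9 replicate 1 or 3 (0.51 to 1.16, adjusted p = 0.0908 to 0.353), nor without the 4 libraries numbered 12 to 18 (0.74, adjusted p = 0.175), nor with no filter or only the groups compared (adjusted p = 0.0680 and 0.113). On days 6 and 12 the differences of 1.01 and 0.87 missed the threshold (adjusted p = 0.0687 and 0.137) and passed with a replicate block (adjusted p = 0.00358 and 0.0113) or the number run (adjusted p = 0.00591 and 0.0312). Day 6 also passed in DESeq2, by library size and with only the groups compared (adjusted p = 0.0274, 0.0444 and 0.00395). In resident cells Fabp5 fell from untreated to day 3 (-1.28 ± 0.42, adjusted p = 0.0336). That call rested on the untreated library with 808 CPM (without it -0.75, adjusted p = 0.225) and was also lost without any resident day 3 library (lowest adjusted p = 0.0726) and with no filter (adjusted p = 0.0765). Recruited Fabp5 rose against day 3 by 1.42 ± 0.43 on day 9 (adjusted p = 0.0130) and 1.25 ± 0.42 on day 12 (adjusted p = 0.0233). Both calls were lost without recruited day 3 replicate 2 or 3, the first also without recruited day 9 replicate 2 (0.74 to 1.34, adjusted p = 0.0517 to 0.154) and the second without recruited day 12 replicate 1 (0.86 to 1.17, adjusted p = 0.0801 to 0.141). Without the 4 numbered libraries the rises were 0.74 (adjusted p = 0.105) and 0.86 (adjusted p = 0.0592). The first was also lost with only the groups compared (adjusted p = 0.0809) and the second with no filter (adjusted p = 0.0534).

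**Figure D4:**
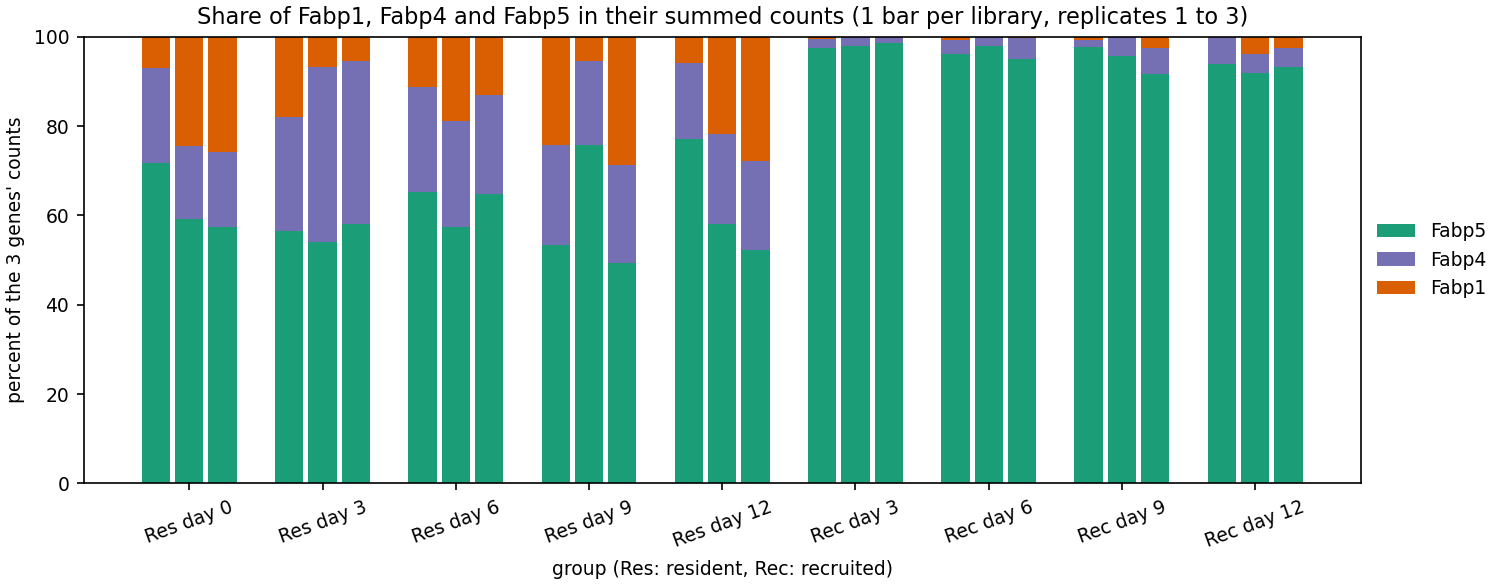
Percent of the summed counts of Fabp1, Fabp4 and Fabp5 (y axis) that each gene takes in each library (1 bar per library, replicates 1 to 3 in order, grouped by population and day on the x axis). Fabp5 takes 62.7% on average in untreated resident cells and 97.9% in recruited cells on day 3.

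The mix of the 3 transcripts differed between the populations. Fabp5 made up a mean of 56.2% to 62.7% of their summed counts in the 5 resident groups and 93.0% to 97.9% in the 4 recruited groups. Fabp4 made up 18.2% to 33.7% in resident and 1.85% to 4.93% in recruited groups, and Fabp1 10.1% to 19.5% and 0.206% to 2.11%. Weighted by transcript length, Fabp5 still held 50.6% to 55.1% in resident groups and 91.0% to 97.6% in recruited groups.

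The set held 2 lipid droplet genes. Plin2, the droplet coat gene, had the highest level per kilobase of transcript in untreated resident and in recruited day 3 cells and varied least, with no library more than 0.15 from its group's mean on the log2 scale. Resident libraries had 1315, 1317 and 1247 CPM untreated, 1477, 1519 and 1606 CPM on day 3, 1248, 1250.5 and 1176 CPM on day 6, 1284, 1310.1 and 1479.6 CPM on day 9, and 1490.2, 1327 and 1422 CPM on day 12. Recruited libraries had 1809, 1876.5 and 2034 CPM on day 3, 1391, 1578 and 1489 CPM on day 6, 1473, 1401 and 1228 CPM on day 9, and 1269, 1141 and 1129 CPM on day 12. On day 3 all recruited libraries were above all resident ones, and on day 12 all were below. Recruited cells had more Plin2 on day 3 (0.31 ± 0.10, adjusted p = 0.0103) and day 6 (0.28 ± 0.10, adjusted p = 0.0274) and less on day 12 (-0.26 ± 0.10, adjusted p = 0.0483). The day 3 call was lost when counts were scaled by library size alone (0.19, adjusted p = 0.118), with only the groups compared (0.28, adjusted p = 0.0616) and without recruited day 3 replicate 3 (0.26, adjusted p = 0.0523). The day 6 call was lost with no filter (adjusted p = 0.0713) and without replicate 2 or 3 of either population (0.25 to 0.29, adjusted p = 0.0559 to 0.0965). The day 12 call was lost with a replicate block (-0.24, adjusted p = 0.0557), without the 4 libraries numbered 12 to 18 (-0.26, adjusted p = 0.104), with DESeq2's size factors, no filter or only the groups compared (-0.26 to -0.23, adjusted p = 0.0832 to 0.225) and without any day 12 library but recruited replicate 1 (-0.30 to -0.19, adjusted p = 0.0520 to 0.227).

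Plin2 was the member that fell in recruited cells, while the other 7 had risen by day 12: from day 3 it dropped by 0.36 to day 6 (adjusted p = 0.00641), by 0.48 to day 9 (adjusted p = 0.000455) and by 0.69 to day 12 (SE 0.10, adjusted p = 5.51e-06). The day 6 call was lost without recruited day 6 replicate 1 (-0.29, adjusted p = 0.0535), and the calls of days 6 and 9 with only the groups compared (adjusted p = 0.0729 and 0.104). The gap between the populations changed by -0.57 ± 0.14 from day 3 to day 12 (adjusted p = 0.00694). In resident cells Plin2 on day 3 was above all untreated libraries by 0.25 ± 0.10, which missed the threshold (adjusted p = 0.0677) and passed in DESeq2 (adjusted p = 0.0187) and with the number run in the model (adjusted p = 0.0392). It then fell from day 3 to day 6 (-0.32 ± 0.10, adjusted p = 0.0170), except without replicate 3 of either day (-0.31 to -0.29, adjusted p = 0.0626 to 0.0826). Summed neutrophil markers (10 genes) were at 503 to 1022 CPM in recruited and 215 to 242 CPM in resident libraries of day 3. They were at 364 to 443 and 130 to 140 CPM on day 6, and at 283 to 361 and 116 to 150 CPM on day 9. On day 12, where Plin2 was lower in recruited libraries, they were at 297 to 414 and 137 to 172 CPM. Ly6g, a defining neutrophil marker, was at 0 in the recruited libraries of days 6, 9 and 12 but not of day 3, and the part of neutrophil RNA in the Plin2 values was not tested.

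Cidec, the droplet fusion gene, was scarce in recruited cells. Resident libraries had 258.5, 388 and 404 CPM untreated, 193, 181 and 141 CPM on day 3, 315, 353 and 316 CPM on day 6, 484, 241 and 526 CPM on day 9, and 263, 390.2 and 428 CPM on day 12. Recruited libraries had 7.70, 1.33 and 0.582 CPM on day 3, 17.1, 4.45 and 10.9 CPM on day 6, 9.95, 4.95 and 38.7 CPM on day 9, and 6.19, 47.2 and 39.3 CPM on day 12. All 12 recruited libraries were below all 15 resident ones. The difference was -5.71 ± 0.88 on day 3 (adjusted p = 2.43e-05), -4.91 ± 0.82 on day 6 (adjusted p = 8.85e-05), -4.55 ± 0.80 on day 9 (adjusted p = 0.000169) and -3.54 ± 0.76 on day 12 (adjusted p = 0.00159). In recruited cells Cidec rose from day 3 by 2.44 ± 0.82 to day 9 (adjusted p = 0.0253) and by 3.24 ± 0.82 to day 12 (adjusted p = 0.00376). The day 9 call was lost without recruited day 3 replicate 2 or 3 or recruited day 9 replicate 3 (1.21 to 2.08, adjusted p = 0.101 to 0.276), with no filter (adjusted p = 0.0512) and, like that of day 12, with only the groups compared (adjusted p = 0.162 and 0.0951). Resident day 3 libraries were below all untreated ones for Cidec, and the difference of -1.03 ± 0.69 missed the threshold (adjusted p = 0.300) and passed with only the groups compared (-1.04, adjusted p = 0.00401).

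Some markers of resident cells had values close to those of Fabp1 and Cidec in the recruited libraries, and others did not. As a percent of the paired resident library, recruited day 3 replicate 1 had 4.0% for Cidec and 2.82% for Fabp1, beside 4.84% for Krt19, 6.94% for Krt79 and 7.38% for Ear1. In recruited day 3 replicate 2 the same genes gave 0.738% and 0%, beside 0.298%, 0.947% and 0.812%. On day 12 replicate 2 had 12.1% and 16.9%, beside 13.9%, 12.9% and 16.7%, and replicate 1 had 2.35% and 2.36%, beside 3.1%, 2.10% and 2.21%. These 3 of the 12 resident markers were chosen after their values were seen, and Krt19 is also among the genes nearest in profile to both members. On day 3 replicate 1 was the lowest of the 3 pairs for only Chil3 (9.8%, 12.8% and 14.4%) and Siglec1 (29.9%, 35.1% and 41.2%). For each other marker of the 12 that replicate was the highest pair of day 3. Examples were Siglecf (4.73%, 1.23% and 1.31%), Marco (8.19%, 2.19% and 2.17%) and Mrc1 (5.85%, 1.57% and 1.86%). Atp6v0d2 was at 79.1% and 79.8% in day 12 replicates 1 and 2.

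Group means of recruited over resident cells were 1.87%, 3.29%, 4.28% and 8.57% for Cidec and 1.81%, 3.32%, 5.28% and 11.4% for Fabp1 on days 3, 6, 9 and 12. Over all 12 resident markers, Itgax (CD11c, used in the sort) included, the median percent was 3.39%, 9.89%, 11.9% and 21.4% on the same days, with ranges of 2.39% to 35.7% on day 3 and 7.98% to 78.6% on day 12. Among these markers on day 12 were Siglecf at 11.9%, Siglec1 at 30.1%, Chil3 at 32.5%, Ear2 at 33.4%, Mrc1 at 42.9%, Itgax at 57.6% and Atp6v0d2 at 78.6%. Pparg, Fabp4 and Lpl, at 56.1%, 34.2% and 30.2%, lay within the wide day 12 range of the markers. Cidec and Fabp1, at 8.57% and 11.4%, also lay within it. Cd36, Plin2 and Fabp5, at 80.1%, 83.5% and 183%, lay above it. The part of resident cells in the recruited sort in these results was not tested.

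Markers of other cells that express some of these genes were measured as well. The 8 adipocyte markers summed to 1.3 to 13.5 CPM in resident and 0.371 to 2.21 CPM in recruited libraries. Most of the resident sum was Plin1, with group means of 1.47 to 10.3 CPM, a gene also on the droplet list below. Lep was at 0 in every group and Adipoq at 0 in all but recruited day 12. The 6 hepatocyte markers summed to at most 0.558 CPM, with Ttr, Serpina1a and Fgb at 0 in every group. The 10 epithelial markers summed to 72.1 to 207 CPM in resident and 12.6 to 56.6 CPM in recruited libraries, most of it Cdh1 and Epcam, while the surfactant gene Sftpc reached a group mean of at most 5.29 CPM. Their part in the results was not tested. Gpihbp1, which anchors lipoprotein lipase on capillary endothelium, was at 0 in every group but recruited day 12.

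**Figure D5:**
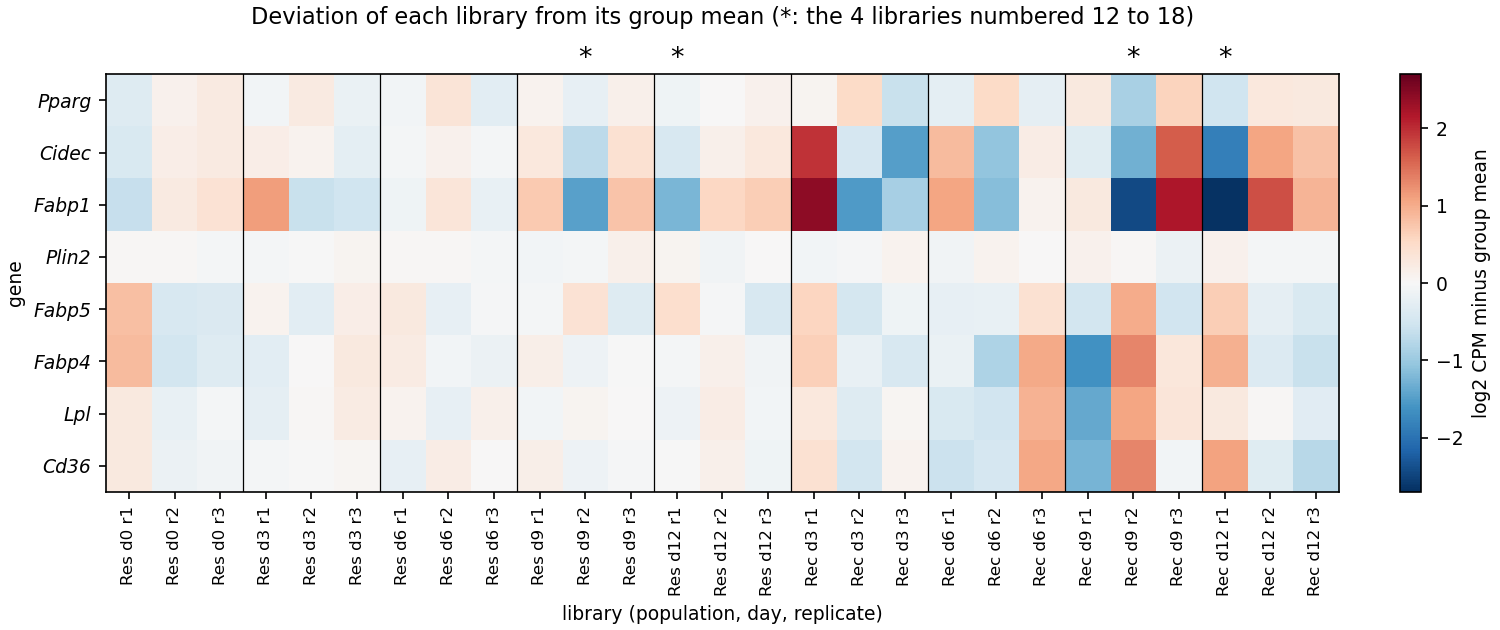
Difference of each library (x axis, grouped by population and day) from its group's mean of log2 CPM (color, red above and blue below) for each gene (y axis), with asterisks over the 4 libraries numbered 12 to 18. Fabp1 reaches -2.67 in the starred recruited day 12 library while Plin2 stays within 0.15 throughout.

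By day, recruited against resident cells gave 1 member higher and 6 lower on day 3 (46.6% of all tested genes passed), 1 and 5 on day 6 (35%), 1 and 5 on day 9 (32%), and 0 and 5 on day 12 (27.3%). In resident cells against untreated, 1 member passed on day 3 (23.8% of genes) and 1 on day 6 (6.42%), both lower. None passed on day 9 (3.49%) or day 12 (1.3%) in edgeR. At an unadjusted p under 0.05 there were 2 and 1, and DESeq2 called 1 and 0. Resident day 6 against day 3 gave 1 lower (24.5%). In recruited cells against day 3, 2 members were higher and 1 lower on day 6 (31.9%), 6 and 1 on day 9 (36.3%), and 7 and 1 on day 12 (39.3% of genes, 19.8% higher). The change of the gap between populations against day 3 passed for no member on day 6 (8.43% of genes) in edgeR, with 4 members at an unadjusted p under 0.05 and 2 called by DESeq2. It passed for 4 members on day 9 (13.2%) and 5 on day 12 (13.6%). Fitted on only the groups compared, 1 member passed for recruited day 9 against day 3 and 5 for day 12. The comparisons share libraries and are not independent. By overlap alone, the libraries of the populations stood apart for 1 member higher and 6 lower on day 3 (56.4% of all tested genes), 2 and 6 on day 6 (49.6%), 1 and 5 on day 9 (38.8%), and 0 and 6 on day 12 (40.7%). Resident libraries stood apart from untreated ones for 2 members higher and 4 lower on day 3 (44.7%), 0 and 3 on day 6 (31.5%), 1 and 1 on day 9 (21%), and 2 and 1 on day 12 (21.2%). Recruited day 12 stood apart from day 3 for 5 members higher and 1 lower (46.1%).

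Against untreated resident cells, recruited cells of day 12 were lower for 5 of the 8 genes (31% of all tested genes passed, 15.5% lower) and higher for none. Fabp1 (-3.68 ± 0.94, adjusted p = 0.00533), Cidec (-3.49 ± 0.76, adjusted p = 0.00137) and Fabp4 (-2.26 ± 0.57, adjusted p = 0.00459) were furthest below. Cd36 was lower by -1.80 ± 0.52 (adjusted p = 0.0118) and Lpl by -1.30 ± 0.41 (adjusted p = 0.0179). The Cd36 call was lost without recruited day 12 replicate 2 or 3 (-1.58 to -1.48, adjusted p = 0.0559 to 0.0615) or with only the groups compared (adjusted p = 0.0503), and the Lpl call without recruited day 12 replicate 3 or untreated replicate 1 (-1.16, adjusted p = 0.0616 to 0.0743). Pparg (-0.79 ± 0.32, adjusted p = 0.0635) passed without untreated replicate 1 (-0.95, adjusted p = 0.0478), in DESeq2 (adjusted p = 0.0389) and with the number run (adjusted p = 0.0318). Fabp5 (0.13 ± 0.42, adjusted p = 0.852) and Plin2 (-0.13 ± 0.10, adjusted p = 0.328) did not pass.

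Per kilobase of the principal transcript, Plin2 (685 CPM per kb), Lpl (610.4) and Fabp5 (506) led in untreated resident cells, followed by Fabp1 (227), Cidec (204), Fabp4 (163), Cd36 (112) and Pparg (94.8). In recruited cells of day 3 the order was Plin2 (1009.9 CPM per kb), Fabp5 (233), Lpl (64.3), Pparg (10.4), Cd36 (9.01), Fabp4 (4.81), Cidec (1.86) and Fabp1 (1.22). With the summed length of all exons instead, Fabp5 moved from rank 3 to 5 and Fabp4 from rank 6 to 8 in untreated cells.

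Across the 9 groups, the order of the levels set Pparg, Fabp1, Fabp4, Cidec and Lpl highest in the resident groups and lowest in recruited day 3, with no overlap between the lowest resident group and recruited day 12. For Pparg the 5 resident group means (156 to 179 CPM) had overlapping libraries, as had recruited days 12, 9 and 6, and recruited day 3 stood apart below them. For Cd36 the untreated group stood apart at the top and resident day 3 next, and recruited days 6 and 3 did not separate at the bottom. For Fabp5 no 2 neighbours in the order separated, from 614 CPM in recruited day 9 to 206 CPM in resident day 3. For Plin2, recruited day 3 stood apart at the top (1907 CPM) and the 8 lower groups formed an overlapping series down to 1180 CPM, 1.62-fold lower.

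Lists of other genes of the pathway, read with results of these data known, moved unevenly. Of 26 tested textbook PPAR target genes (30 listed), 23 were lower and 2 higher in recruited cells averaged over days, with a median of -1.01 against 0.02 over all tested genes. In that comparison 60.3% of all tested genes passed (30.3% higher, 30% lower), which is the background for each list below. Acaa1b, a peroxisomal thiolase, was lower by -4.46 ± 0.40 (adjusted p = 5.93e-09), Pdk4, which restrains glucose oxidation, by -4.00 ± 0.32 (adjusted p = 4.67e-10) and Gpd1, which makes the glycerol backbone of triglyceride, by -3.52 ± 0.24 (adjusted p = 3.87e-11). Pdk4 had few recruited reads, with 16, 20, 45 and 62 per group on days 3, 6, 9 and 12. From day 3 to day 12 in recruited cells 14 of the 26 rose and 4 fell, where 39.3% of all tested genes passed and 19.8% were higher. In resident cells of day 12 against untreated, 1 was higher and none lower, where 1.3% of all tested genes passed.

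Of 23 tested droplet genes (28 listed), 13 were lower and 6 higher in recruited cells (60.3% of all genes passed), with a median of -0.62. Pnpla3, a droplet lipase, differed by -4.08 ± 0.39 (adjusted p = 6.62e-09) and Mgll, the monoglyceride lipase, by -3.78 ± 0.29 (adjusted p = 4.86e-10). Plin1, the perilipin of adipocytes, differed by -3.66 ± 0.28 (adjusted p = 1.31e-10). The recruited groups of days 3, 6, 9 and 12 held 3, 7, 13 and 53 reads of Pnpla3 in all. For Plin1 they held 19, 31, 29 and 28, so the sizes of the Pnpla3 and Plin1 differences are uncertain. Fatty acid uptake and activation genes were mixed, with 5 of 13 tested (20 listed) higher and 4 lower, beside 30.3% and 30% of all tested genes. Ffar4, a fatty acid receptor, was lower (-3.92 ± 0.26, adjusted p = 3.21e-11), as was Scarb1, the high-density lipoprotein receptor (-1.42 ± 0.13, adjusted p = 6.31e-09), while the transporter gene Slc27a1 was higher (1.16 ± 0.08, adjusted p = 7.44e-12). The recruited group of day 3 held 13 reads of Ffar4 in all.

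Among genes that act on lipoprotein lipase or take up lipoproteins, 6 of 15 tested (18 listed) were higher and 5 lower, again beside 30.3% and 30% of all tested genes. Apoe, the ligand of lipoprotein receptors, was higher by 6.37 ± 0.34 (adjusted p = 1.52e-12), with group means of 1132 to 14349 CPM in recruited and 32.8 to 134 CPM in resident cells. Apoc2, the activator of lipoprotein lipase, was higher by 4.2 ± 0.43 (adjusted p = 4.26e-08), so the lipase gene and its activator gene lay in opposite directions, and Apoc1 was lower by -2.28 ± 0.22 (adjusted p = 3.20e-09). The resident groups of days 6, 9 and 12 held 130, 95 and 66 reads of Apoc2 in all. Of 16 surfactant and cholesterol clearance genes, all tested, 9 were higher and 4 lower (30.3% and 30% of all tested genes). Plbd1, a phospholipase B domain gene, was higher (4.96 ± 0.28, adjusted p = 3.84e-12), and the scavenger receptor gene Marco (-3.65 ± 0.47, adjusted p = 1.16e-06) and the cholesterol exporter gene Abcg1 (-1.58 ± 0.13, adjusted p = 1.80e-10) were lower. Reads of Plbd1 in the resident groups of days 6, 9 and 12 were 106, 51 and 61, so the size of its difference is uncertain.

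Upstream of Pparg, 6 of 16 tested genes of GM-CSF and TGF-beta signalling (17 listed) were higher in recruited cells and 6 lower, where 60.3% of all tested genes passed, with a median of -0.12. Smad3, which carries the TGF-beta signal, was higher by 3.02 ± 0.26 (adjusted p = 9.60e-10) and fell in recruited cells from day 3 to day 12 (-1.92 ± 0.44, adjusted p = 0.00151). Jak2, the kinase of the GM-CSF receptor, was higher by 1.21 ± 0.07 (adjusted p = 1.01e-12), with recruited means of 525 CPM on day 3 and 101 CPM on day 12, and the repressor gene Bach2 by 2.57 ± 0.15 (adjusted p = 9.60e-13). Resident groups of days 6, 9 and 12 held only 42, 51 and 37 reads of Smad3 and 75, 57 and 87 of Bach2. Of 17 tested partners and coregulators of PPARγ (20 listed), 4 were higher, 5 lower and 8 did not pass, beside 60.3% of all tested genes that passed. Rxra was lower by -0.91 ± 0.08 (adjusted p = 7.11e-10) and the coactivator gene Ncoa3 higher by 0.41 ± 0.07 (adjusted p = 9.48e-06).

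Genes with the profile nearest to each member were found among 10568 genes by the root mean square difference of centred log2 group means over the 9 groups. Pparg was nearest to Rab19 (0.13) and Cdkl2 (0.16), and Lpl to Cd81 (0.25) and Map7d3 (0.26). Fabp1 was nearest to Cpne5 (0.16) and Krt19 (0.27), and Cidec to Hspa12a (0.14) and Krt19 (0.15). Fabp4 was nearest to Anln (0.24) and Serpinb1a (0.26), and Fabp5 to Cd83 (0.16) and mt-Tp (0.20). Plin2 was nearest to Rela (0.063) and Aspscr1 (0.064), in a profile with little change, and Cd36 to Kif24 (0.38) and Kif18a (0.41). Among the members themselves, Fabp1 and Cidec were closest (0.33), then Fabp4 and Lpl (0.43) and Pparg and Lpl (0.46). The measure rests on group means over the same 27 libraries.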

How the data were processed

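Bulk polyA RNA-seq of sorted mouse macrophages gave the deposited table of whole-number read counts per Ensembl gene for 27 libraries, from a modified stranded kit on the Ion Proton, per the labels' protocols. Per the submitters' processing notes, the authors used STAR 2.4.0a, HTSeq 0.6.0, DESeq2 1.4.5 and R 3.1.0 with the mm10 build. The annotation release and strand option were not given in the sources used here. Rows of unassigned reads were left out of library sizes, among them the reads outside annotated genes (6.77% to 26.5%). Symbols for 36345 of 38124 identifiers, positions and lengths came from GENCODE M21, promoters from RefSeq (GRCm38.p6).

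The counts were filtered with filterByExpr (minimum count 10, minimum total 15), scaled by TMM and fitted in edgeR 4.0.16 (R 4.3.3) with 9 group means over 27 libraries (18 residual df, robust quasi-likelihood). Tests were two-sided, with Benjamini-Hochberg adjustment over 13599 genes and a threshold of 0.05. Each SE is the log2 difference over the square root of F. Group values are mean ± SD of 3 libraries. Alternatives were DESeq2 1.42.0, other scalings, no filter, each library left out, only the groups compared, a replicate block, a covariate for the number run and leaving out the 4 libraries numbered 12 to 18. The last, and lengths of all exons, were added after seeing the data. Log2 deviations used a prior count of 2.

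All 8 members were named in each comparison. From each pathway list, up to 3 genes were named by size among those past the threshold, not overlapping on each day and at 5 CPM or more, and 2 nearest genes per member. The members and lists were chosen with earlier results of these data known. Recruited and resident libraries of the same day and replicate number deviated together (12 pairs, r from 0.17 to 0.52). Of the libraries, 24 of 24 were closest to their own replicate number. The pairing of the populations within a day rests on these data and not on the labels. Each pair also shared a number run, so a link within the pair and a shared run were not told apart. The fits were tested on simulated data.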

Additional observations from a re-analysis of the deposited data

Results flagged for a closer look

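Several members changed differently in the 2 populations, by the test of the change of the recruited to resident gap. From day 3 to day 9 the log2 gap changed by 1.66 for Pparg, 2.95 for Fabp4 (missed with a replicate block, adjusted p = 0.0995, with only the groups compared, adjusted p = 0.0550, and without the 4 libraries numbered 12 to 18, adjusted p = 0.107), 1.73 for Lpl and 2.80 for Cd36. The Fabp4 call was also lost without recruited day 3 replicate 2 or 3, recruited day 9 replicate 2 or resident day 3 replicate 3 (2.16 to 2.82, adjusted p = 0.0506 to 0.0848). From day 3 to day 12 it changed by 2.25 for Pparg, 3.25 for Fabp4, -0.57 for Plin2, 2.09 for Lpl and 2.51 for Cd36. For Pparg, Lpl and Cd36 the libraries that end these calls are named with the values above.

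Reads outside annotated genes made up 26.5% of recruited day 6 replicate 2, against 9.16% to 11.2% in the untreated libraries, in a part of the table that no comparison used. In that library Cidec was 4.45 CPM and Fabp1 0.557 CPM, the lowest of their group, and Pparg was 68.8 CPM, the highest.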

How the results depend on the processing

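Of 136 member results, 66 passed the test and 35 of these passed under every alternative run. None of the 66 changed direction. Over 2136 alternative values, 1906 kept direction and side of the threshold, 131 lost a call, 56 gained one and 43 changed sign. Numbers of members called moved as follows. Recruited against resident on day 12 had 5, and 3 with DESeq2's size factors in edgeR, without the filter or with only the groups compared. Resident day 3 against untreated had 1, and 0 without the filter, 2 in DESeq2, 4 with only the groups compared and 3 with the number run. Day 6 had 1, and 2 with only the groups compared or the number run. Day 9 had 0, and 1 with library size, DESeq2, only the groups compared or without the 4 libraries numbered 12 to 18, and 2 with the number run. Day 12 had 0, and 1 with only the groups compared. Resident day 6 against day 3 had 1, and 2 with library size, DESeq2 or the number run, and 5 with only the groups compared. Recruited day 9 against day 3 had 7, and 1 with only the groups compared, and day 12 had 8, and 5. Gap changes to day 6 had 0, and 1 with library size, only the groups compared, the number run or the replicate block, and 2 in DESeq2. To day 9 they had 4, and 1 with only the groups compared or the replicate block and 2 without the 4 numbered libraries, and to day 12 5, and 3 with the replicate block. The block otherwise changed only the calls given above and that of Fabp5 in recruited day 6 against day 3 (1.09, adjusted p = 0.0465, called with it).

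Signs turned for uncalled results only. With library size they were -0.0090, -0.0534 and -0.0538 for Pparg in resident days 6, 9 and 12 against untreated, -0.0469 for Cidec on resident day 12, -0.0286 for Plin2 on resident day 9 and 0.0812 for the Plin2 gap change to day 6. With the number run Fabp1 on resident day 12 was 0.0274 and Fabp5 in recruited day 12 against untreated cells -0.0983, or -0.28 without the 4 numbered libraries. Without those libraries Plin2 between populations on day 9 was -0.0355, and in DESeq2 Cd36 there was 0.0014.

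Leaving out each library gave 2 to 4 members on day 12 between populations, 0 to 1 for resident day 3 and day 6 against untreated and for day 6 against day 3, 2 to 5 and 4 to 7 for recruited days 6 and 9, 3 to 5 for recruited day 12 against untreated, and 1 to 4 and 3 to 6 for the gap changes to days 9 and 12. In log2 units, ranges that crossed 0 were, for Pparg in resident cells, -0.26 to 0.018, -0.099 to 0.22, -0.11 to 0.17 and -0.12 to 0.16 on days 3, 6, 9 and 12. For the others they were -0.018 to 5.39 (Fabp1 gap to day 9), -0.50 to 0.30 (Fabp4 resident day 3), -0.19 to 0.36 and -0.29 to 0.66 (Fabp5 between populations on day 3 and recruited day 12 against untreated), -0.27 to 0.023, -0.14 to 0.19 and -0.074 to 2.93 (Cidec resident days 6 and 12 and gap to day 9), -0.048 to 0.079, -0.0032 to 0.11 and -0.072 to 0.045 (Plin2 between populations on day 9, resident day 9 and gap to day 6), and -0.94 to 0.39 and -0.59 to 0.44 (Cd36 between populations on day 9 and recruited day 6).

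Calls over all genes moved by over 1.5 times in resident day 6 against untreated (873, and 450 to 1586), day 9 (474, and 122 to 1076) and day 12 (177, and 75 to 384), resident day 3 against untreated (3232, and 1897), day 6 against day 3 (3329, and 1948 to 2122), recruited against resident on day 9 (4351, and 2497), recruited day 9 against day 3 (4933, and 2772), and the gap changes to day 6 (1147, and 2062 to 2143), day 9 (1793, and 947 to 2930) and day 12 (1853, and 2818 to 2938). In the levels, library size moved 2 of 72 group means by over 1 SD, Plin2 in untreated and in recruited day 3 cells. Counts under 10 in recruited libraries limit Fabp1 and Cidec there. The cause of these shifts was not tested.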
